A study of Mus musculus with 8 samples.

Results

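The cyclins and kinases that carry a cell from G1 into S phase were measured in neonatal cardiomyocytes (NCMs) by RNA-seq. The 10 genes were chosen by name from the 27179 genes counted, namely the D cyclins Ccnd1, Ccnd2 and Ccnd3, the E cyclins Ccne1 and Ccne2, the A cyclin Ccna2, the kinases Cdk2, Cdk4 and Cdk6, and the phosphatase Cdc25a. All 10 passed the filter on low counts. Each of the 8 libraries came from the NCMs of 1 male C57Bl/6 J heart on postnatal day 0 (PND0), with 4 libraries from offspring of dams kept in filtered air (FA replicates 2, 3, 4 and 6) and 4 from offspring of dams exposed to diesel exhaust (DE replicates 1, 3, 5 and 7). Exposure ran from E0.5 to E17.5 of gestation. After dissociation, the cells of both groups were held for 1 hour in Ara-C, a nucleoside that blocks DNA synthesis, while fibroblasts attached to the plate and the floating cells were kept. The comparison of DE with FA asks how transcription in NCMs differs at birth after exposure in utero.

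D cyclins are made in response to growth signals and bind Cdk4 or Cdk6, and these complexes begin the phosphorylation of the retinoblastoma protein, which releases E2F transcription factors. E cyclins with Cdk2 then complete that step and start DNA replication, and cyclin A2 takes over Cdk2 during S phase. Cdc25a removes the inhibitory phosphates from these kinases. Rodent cardiomyocytes divide before birth and largely leave the cell cycle in the days after it.

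On the GRCm38.p6 assembly (the mm10 build to which the reads were aligned), the D cyclins lie at chr7:144929931-144939831 (Ccnd1, minus strand, Entrez gene 12443), chr6:127125162-127152188 (Ccnd2, minus strand, 12444) and chr17:47505051-47599689 (Ccnd3, plus strand, 12445). Ccne1 lies at chr7:38097984-38107490 on the minus strand (12447), Ccne2 at chr4:11190433-11204779 on the plus strand (12448) and Ccna2 at chr3:36564865-36573038 on the minus strand (12428). The kinases lie at chr10:128697938-128705051 (Cdk2, minus strand, 12566), chr10:127063535-127067288 (Cdk4, plus strand, 12567) and chr5:3341004-3531008 (Cdk6, plus strand, 12571), and Cdc25a at chr9:109875518-109893895 on the plus strand (12530).

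Promoter sequences from RefSeq (GRCm38.p6) were matched for 6 of the 10 genes, not for Ccnd1, Ccnd2, Ccne2 or Ccna2. They are shown for Ccne1, which differed between the groups, beside its partner kinase Cdk2, and for Cdk4, which holds the E-box letters. Each line gives the 180 bases before the start site, which for these 3 is the first base of the gene given above, 5′ to 3′ on the strand of the gene. Capitals mark the letters of an E2F site (TTTCGCGC, TTTGGCGC, TTTCCCGC or TTTGCCGC, either strand) or of an E-box (CACGTG, which reads alike on both strands).
Ccne1 (chr7:38107491-38107670, minus strand): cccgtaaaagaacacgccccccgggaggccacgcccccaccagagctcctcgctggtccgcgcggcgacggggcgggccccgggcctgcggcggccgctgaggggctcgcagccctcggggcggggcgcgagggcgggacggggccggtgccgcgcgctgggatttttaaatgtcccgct
Cdk2 (chr10:128705052-128705231, minus strand): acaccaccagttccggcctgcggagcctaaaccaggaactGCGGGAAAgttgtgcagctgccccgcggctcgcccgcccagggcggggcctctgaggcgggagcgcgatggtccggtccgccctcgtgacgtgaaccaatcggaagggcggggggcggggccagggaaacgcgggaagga
Cdk4 (chr10:127063355-127063534, plus strand): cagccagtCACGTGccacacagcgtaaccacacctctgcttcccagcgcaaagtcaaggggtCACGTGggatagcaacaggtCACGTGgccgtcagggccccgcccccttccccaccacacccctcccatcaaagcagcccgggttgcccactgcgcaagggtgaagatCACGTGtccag
In the window from 250 bases before to 50 bases after the start, E2F letters stood in 2.26% of 32851 promoters, the E-box in 7.15% and the Sp1 letters GGGCGG, on either strand, in 35.7%. Cdk2 and Cdc25a held 1 E2F match each, and Cdk4 held 4 E-boxes and Cdk6 held 1. Ccne1 held no E2F letters in this window and 4 matches to GGGCGG, Cdk2 held 6, Cdk4 held 3, Cdc25a held 2 and each of 2 Ccnd3 promoters held 2. The windows of Cdc25a and Cdk6 and 1 of Ccnd3 are set on start sites that lie within the gene as given above. A match is a run of letters and was not tested for binding. No link between these letters and the differences between DE and FA below was tested, and of the genes called there Ccnd1 and Ccna2 had no matched promoter.

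Of the 10 genes, 3 were called between DE and FA, all of them higher in DE. These were Ccnd1, Ccne1 and Ccna2, which were 1.82, 1.75 and 1.37 times as high in DE by mean CPM (CPM being counts scaled to library size with TMM factors). To be called, a gene had to differ by at least 25% with an adjusted p of at most 0.05 (edgeR quasi-likelihood test, Benjamini-Hochberg over 14966 tested genes). By that rule 5.80% of all tested genes were called in either direction and 3.58% were called higher in DE. In 4 of the 10 genes every DE library lay above every FA library, against 7.43% of all tested genes. Over the 10 genes the median log2 fold change was 0.31, and over all tested genes it was 0.00. In these bulk samples, a larger share of cells in cycle cannot be told apart from more RNA of these genes per cell, and fewer cells of a type cannot be told apart from less RNA per cell. Summed fibroblast markers were also higher in every DE library, at 2057 to 3556 CPM in FA and 3753 to 6315 CPM in DE, and their part in these differences was not tested.

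**Figure D1:**
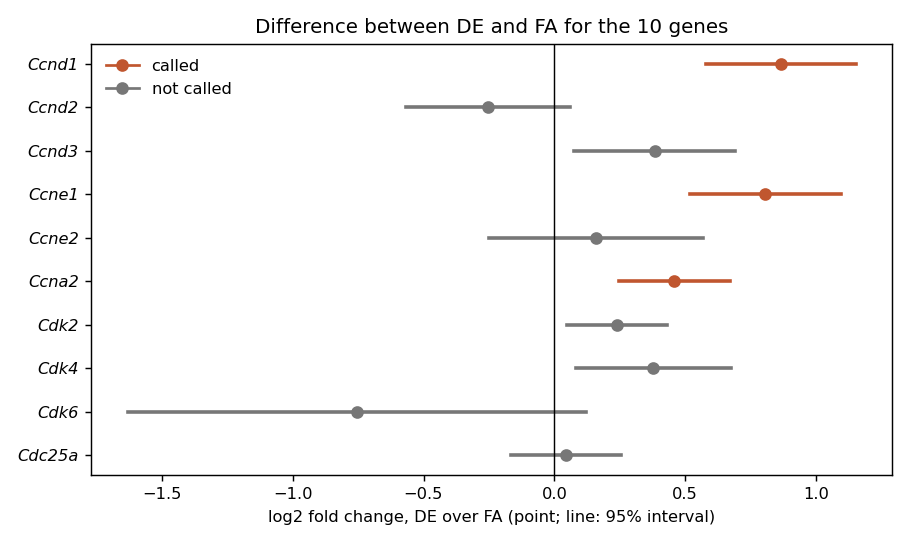
Log2 fold change of DE over FA (horizontal axis) for each of the 10 genes, with points for the edgeR estimate and lines for its 95% interval, 4 libraries per group, and orange for called genes. Ccnd1, Ccne1 and Ccna2 lie farthest above 0, at 0.87, 0.81 and 0.46, with intervals clear of 0. The intervals of Ccnd3, Cdk2 and Cdk4, which are not adjusted for the number of genes, also lie above 0 without a call, and Cdk6 has the widest interval.

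Among the D cyclins, Ccnd1 rose, while neither Ccnd2 nor Ccnd3 was called. Ccnd1 encodes cyclin D1, the D cyclin most closely tied to growth signals. Ccnd1 was measured at 36.0, 29.4, 40.4 and 40.0 CPM in FA replicates 2, 3, 4 and 6 and at 58.5, 79.6, 64.4 and 63.4 CPM in DE replicates 1, 3, 5 and 7. The lowest DE library stood well above the highest FA library, and DE replicate 3 was the highest of all. Mean CPM was 36.5 ± 5.09 for FA and 66.5 ± 9.12 for DE (SD, n = 4 each). The log2 fold change was 0.87 (standard error 0.13, 95% interval 0.58 to 1.15, adjusted p = 0.00493 from edgeR), which placed Ccnd1 at rank 92 of all tested genes by p-value. Ccnd1 kept its call under all 19 alternatives tried, with log2 fold changes of 0.74 to 0.94.

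Ccnd2, which encodes cyclin D2, was measured at 202.7, 157.9, 222.3 and 183.7 CPM in FA replicates 2, 3, 4 and 6 and at 151.1, 141.7, 145.9 and 205.2 CPM in DE replicates 1, 3, 5 and 7. The groups overlapped, since DE replicate 7 lay among the upper FA libraries while the other 3 DE libraries lay below all of FA. Its log2 fold change was -0.25 (standard error 0.14, 95% interval -0.57 to 0.06, adjusted p = 0.289 from edgeR), and it was -0.40 without DE replicate 7. For Ccnd3, which encodes cyclin D3, the values were 84.3, 111.4, 103.4 and 108.5 CPM in FA and 126.1, 150.1, 152.7 and 102.0 CPM in DE, in the same order of replicates. Here DE replicate 7 lay within the FA range and the other 3 DE libraries above it. The log2 fold change was 0.38 (standard error 0.14, 95% interval 0.07 to 0.69, adjusted p = 0.122 from edgeR). On the 6 libraries whose names carry 11, which leave out DE replicates 3 and 5, it was -0.11 for Ccnd2 and 0.16 for Ccnd3.

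**Figure D2:**
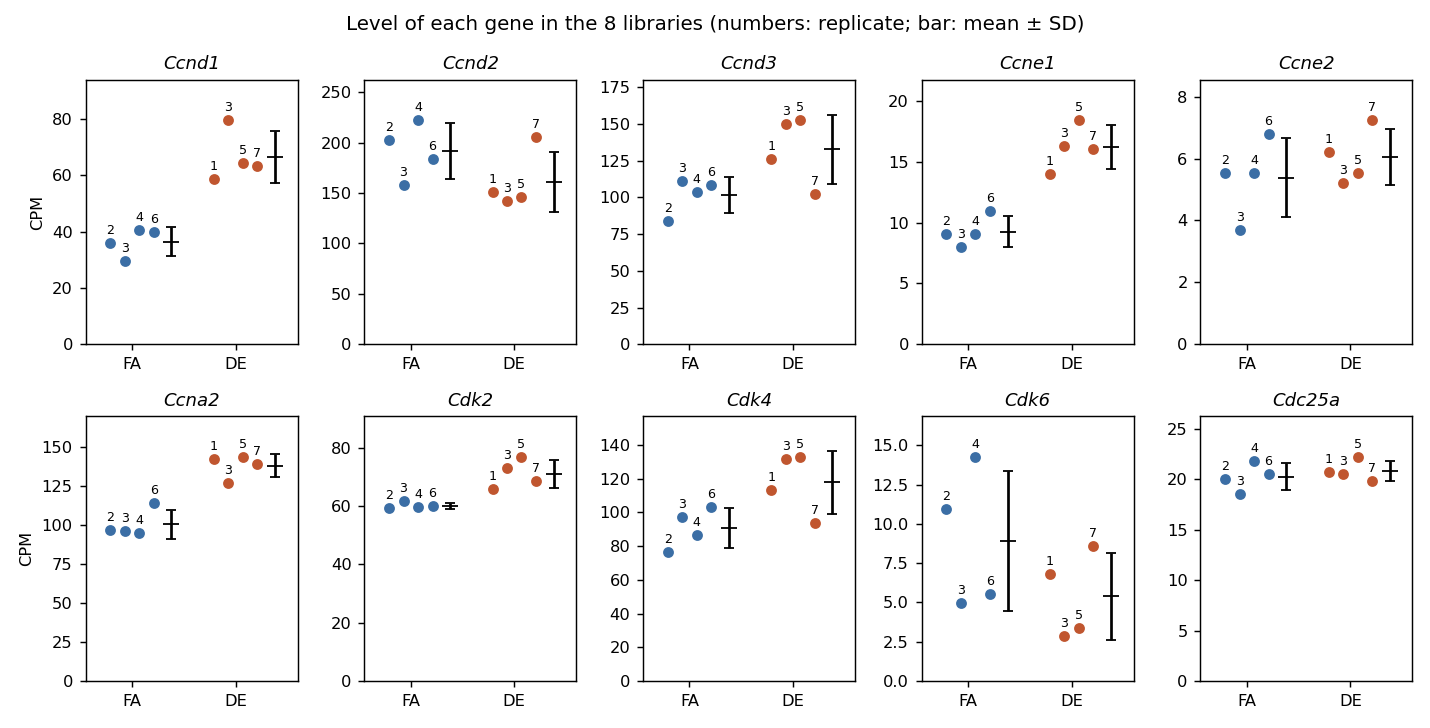
CPM (vertical axis, from 0) of each of the 10 genes in the 4 FA libraries (blue) and 4 DE libraries (orange), with the replicate number above each point and bars for the mean ± SD. The groups stand apart for Ccnd1, Ccne1, Ccna2 and Cdk2, while DE replicate 7 lies among the FA libraries for Ccnd2, Ccnd3 and Cdk4.

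Levels of different genes were compared as CPM per kilobase of exon, which sets transcripts of unequal length on a common scale. On that scale the make-up of the D cyclins differed between the groups in the part that was Ccnd1. Ccnd1 took 9.58% to 12.2% of the D cyclin total in the FA libraries (11.4 ± 1.25%, SD, n = 4) and 16.0% to 19.3% in DE (17.4 ± 1.53%, SD, n = 4), without overlap. Ccnd2 took 30.4% to 40.6% in FA and 20.3% to 34.3% in DE, and Ccnd3, the largest part in both groups, took 47.2% to 60.1% and 47.8% to 62.7%. The 3 D cyclins summed to 79.0 to 91.7 CPM per kilobase in FA and to 94.5 to 110.2 in DE. These shares rest on the same counts as the fold changes and were not tested.

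**Figure D3:**
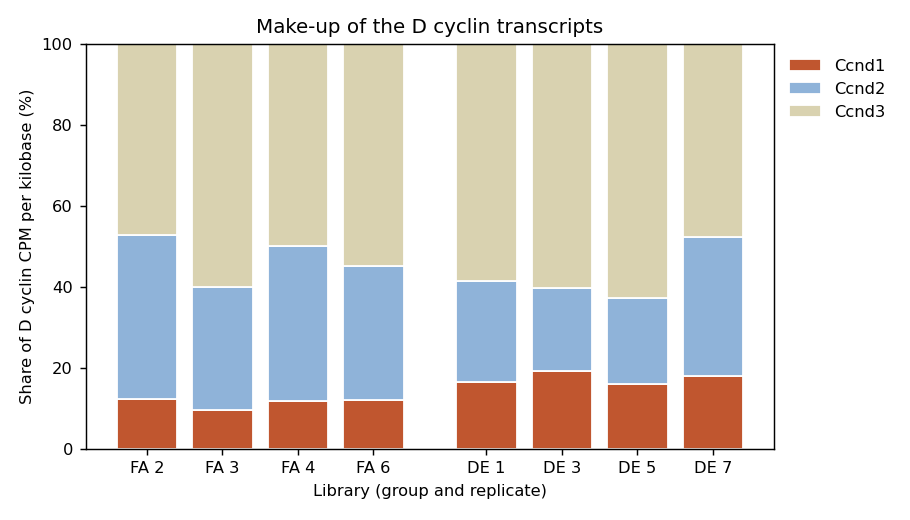
Share (%) of the summed CPM per kilobase of the D cyclins taken by Ccnd1, Ccnd2 and Ccnd3 (vertical axis) in each of the 8 libraries (horizontal axis). Ccnd1 takes 9.58% to 12.2% in FA and 16.0% to 19.3% in DE, and Ccnd3 takes the largest share in every library.

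Of the E cyclins, Ccne1 rose and Ccne2 was not called. Ccne1 encodes cyclin E1, an activator of Cdk2 at the start of S phase and itself a known E2F target. Ccne1 was measured at 9.06, 7.97, 9.02 and 11.0 CPM in FA replicates 2, 3, 4 and 6 and at 14.0, 16.3, 18.4 and 16.0 CPM in DE replicates 1, 3, 5 and 7. All DE libraries were above all FA libraries, with FA replicate 6 the nearest to them. Mean CPM was 9.25 ± 1.25 for FA and 16.2 ± 1.81 for DE (SD, n = 4 each). The difference was 0.81 on the log2 scale (standard error 0.13, 95% interval 0.52 to 1.09, adjusted p = 0.00782 from edgeR). The call was lost with the 25% difference built into the test (adjusted p = 0.0544) and on the libraries that carry 11 (log2 fold change 0.69, adjusted p = 0.0509).

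Ccne2, which encodes the related cyclin E2, was measured at 5.53, 3.69, 5.53 and 6.78 CPM in FA and 6.20, 5.22, 5.53 and 7.24 CPM in DE, in the same order of replicates. The ranges overlapped, and the log2 fold change was 0.16 (standard error 0.19, 95% interval -0.25 to 0.57, adjusted p = 0.620 from edgeR). It was 0.02 without FA replicate 3, 0.06 without DE replicate 7 and 0.29 without FA replicate 6, and 0.31 on the libraries that carry 11. The interval includes differences of the size seen for Ccna2. Per kilobase, Ccne1 made up 72.1% to 77.6% of the E cyclins in FA and 78.0% to 84.2% in DE. The E cyclins summed to 5.14 to 7.60 CPM per kilobase in FA and 8.94 to 10.9 in DE, and the ratio of D to E cyclins was 11.5 to 16.0 in FA and 9.20 to 11.3 in DE.

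Ccna2, which encodes the cyclin of S phase and G2, also rose. Ccna2 was measured at 96.7, 96.1, 94.7 and 114.4 CPM in FA replicates 2, 3, 4 and 6 and at 142.1, 127.2, 143.7 and 139.2 CPM in DE replicates 1, 3, 5 and 7. The groups did not overlap, and FA replicate 6 stood above the other 3 FA libraries, which lay close together. Mean CPM was 100.5 ± 9.32 for FA and 138.0 ± 7.46 for DE (SD, n = 4 each). The difference was 0.46 on the log2 scale (standard error 0.10, 95% interval 0.25 to 0.67, adjusted p = 0.0232 from edgeR). The log2 fold change was 0.42 to 0.53 with each library left out in turn, and the call was lost in 4 of these 8 fits. There the adjusted p was 0.0840, 0.0589 or 0.0957 with FA replicate 2, 3 or 4 left out and 0.0532 with DE replicate 5 left out, with log2 fold changes of 0.44, 0.44, 0.42 and 0.44. It was also lost on the libraries that carry 11 (0.48, adjusted p = 0.0753) and with the 25% difference built into the test (adjusted p = 0.391).

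None of the 3 kinases was called. Cdk2, the partner of cyclins E and A, was measured at 59.4, 61.7, 59.6 and 60.1 CPM in FA replicates 2, 3, 4 and 6 and at 65.8, 73.0, 76.9 and 68.7 CPM in DE replicates 1, 3, 5 and 7. Every DE library was above every FA library, and the FA libraries lay within a narrow range. The log2 fold change was small, at 0.24 (standard error 0.09, 95% interval 0.05 to 0.43, adjusted p = 0.117 from edgeR), and 0.15 on the libraries that carry 11.

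Cdk4, a partner kinase of the D cyclins, was measured at 76.2, 97.2, 86.7 and 103.0 CPM in FA and 113.2, 131.7, 133.0 and 93.6 CPM in DE, in the same order of replicates. As with Ccnd3, DE replicate 7 lay within the FA range and the other DE libraries above it. The log2 fold change of Cdk4 was 0.38 (standard error 0.14, 95% interval 0.08 to 0.67, adjusted p = 0.113 from edgeR), and 0.18 on the libraries that carry 11. Cdk6, the other D cyclin kinase, was measured at 10.9, 4.93, 14.3 and 5.55 CPM in FA and 6.83, 2.84, 3.34 and 8.58 CPM in DE. It varied more between libraries of a group than any other of the 10 genes, and its log2 fold change of -0.75 had a 95% interval of -1.63 to 0.12 (standard error 0.40, adjusted p = 0.258 from edgeR). The value for Cdk6 was -0.45 without FA replicate 4, -1.05 without DE replicate 7 and -0.23 on the libraries that carry 11. Per kilobase, Cdk4 made up 97.2% to 99.1% of the sum of Cdk4 and Cdk6 in FA and 98.4% to 99.6% in DE, and the ratio of D cyclins to these kinases was 1.72 to 2.11 in FA and 1.66 to 2.04 in DE.

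Cdc25a was measured at 20.0, 18.6, 21.8 and 20.5 CPM in FA replicates 2, 3, 4 and 6 and at 20.7, 20.5, 22.2 and 19.8 CPM in DE replicates 1, 3, 5 and 7. The groups overlapped almost fully, with means of 20.2 ± 1.34 and 20.8 ± 1.02 CPM (SD, n = 4 each). The difference of 0.04 on the log2 scale (standard error 0.10, edgeR adjusted p = 0.807) had a 95% interval of -0.17 to 0.25, which did not reach the estimates of Ccnd1, Ccne1 or Ccna2. With single libraries left out the log2 fold change of Cdc25a ran from 0.00 to 0.07, and it was 0.00 on the libraries that carry 11.

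In FA the genes stood, per kilobase, in the order Ccnd3 (45.1 CPM per kilobase), Cdk4 (44.2), Ccna2 (33.9), Ccnd2 (30.3), Cdk2 (24.96), Ccnd1 (9.75), Cdc25a (5.57), Ccne1 (4.63), Ccne2 (1.68) and Cdk6 (0.774). Neighbours in that order overlapped in range except at the steps from Cdk2 to Ccnd1, from Ccnd1 to Cdc25a and from Ccne1 to Ccne2. In DE the order was Ccnd3 (58.8 CPM per kilobase), Cdk4 (57.4), Ccna2 (46.6), Cdk2 (29.5), Ccnd2 (25.4), Ccnd1 (17.8), Ccne1 (8.09), Cdc25a (5.73), Ccne2 (1.89) and Cdk6 (0.468). There the neighbours that overlapped were Ccnd3 with Cdk4, Cdk4 with Ccna2, and Cdk2 with Ccnd2. Ccne1 thus stood below Cdc25a in FA, with overlapping ranges, and above it in DE, without overlap.

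The libraries differed in the balance of long and short transcripts, and the levels of several of these genes moved with it. The balance was taken as the median centred log2 CPM of tested genes with at least 8000 exon bases minus that of genes with 2000 or fewer. It was 0.55, -0.25, 0.48 and -0.06 in FA replicates 2, 3, 4 and 6 and 0.12, -0.43, -0.54 and 0.14 in DE replicates 1, 3, 5 and 7. Cdk6, with 11525 exon bases the longest of the 10 genes, was highest in FA replicates 4 and 2 and lowest in DE replicates 3 and 5, the libraries at the ends of this scale. Ccnd2 (6330 exon bases) was also high where the balance was high, and the shorter Cdk4 (2053) and Ccnd3 (2258) were low there. With the balance as a term in the fit, the log2 fold change of Cdk6 was -0.04 (adjusted p = 0.914), that of Ccnd2 was -0.08, and those of Ccnd3 and Cdk4 were both 0.20 (adjusted p = 0.248 and 0.195, all from edgeR). Those of the called genes stayed at 0.86 for Ccnd1, 0.74 for Ccne1 and 0.44 for Ccna2, and all 3 kept their calls. With offsets for transcript length in place of this term, the log2 fold changes of Cdk6, Ccnd2, Ccnd3 and Cdk4 were -0.52, -0.13, 0.32 and 0.30. Those of Ccnd1, Ccne1 and Ccna2 were 0.88, 0.72 and 0.44, and all 3 kept their calls. The term and the offsets were both chosen after the data were seen. The balance was highest in FA replicates 2 and 4 and lowest in DE replicates 3 and 5, whose names carry 12. The fit with the balance as a term therefore cannot fully separate the balance from exposure or from the number in the sample name.

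**Figure D4:**
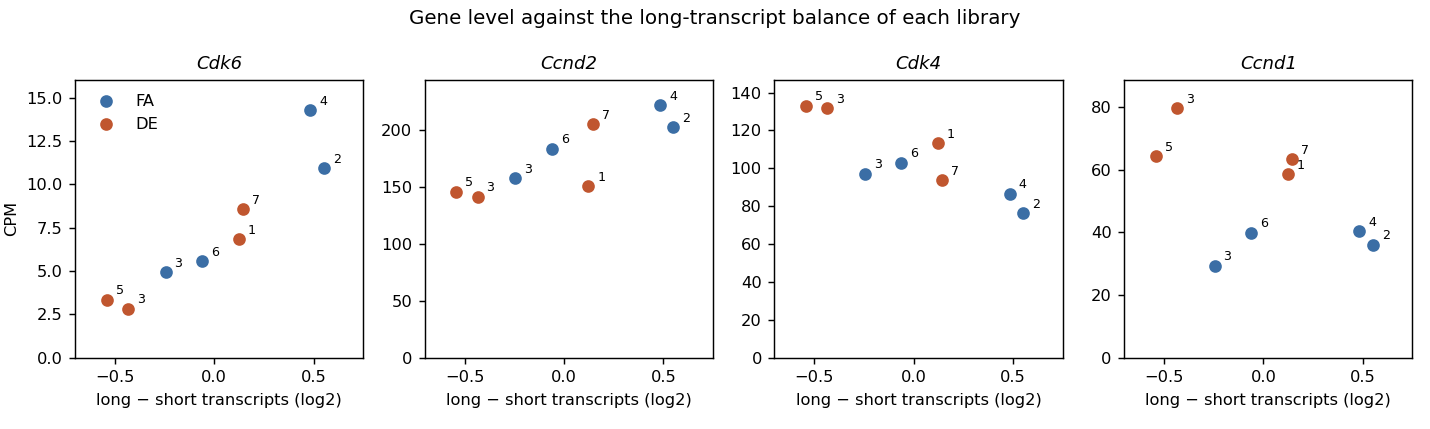
CPM of Cdk6, Ccnd2, Cdk4 and Ccnd1 (vertical axes) against the balance of long over short transcripts (horizontal axes, log2) in the 4 FA libraries (blue) and 4 DE libraries (orange), labelled by replicate. Cdk6 runs from 2.84 CPM in DE replicate 3 to 14.3 CPM in FA replicate 4 along the balance. For Ccnd1 every DE library lies above every FA library. The high end of the balance holds only FA libraries (replicates 2 and 4) and the low end only DE libraries (replicates 3 and 5).

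The exons of 7 of the 10 genes share bases with a gene on the opposite strand. The library kit marks strand, but the strand setting of the counting was not stated, and without strand the reads of such a pair cannot be told apart. The shared bases were 29.41% of the Ccnd1 exons (with LTO1), 31.22% for Cdk4 (Tspan31), 19.03% for Ccne2 (Ints8), 17.2% for Ccna2 (Exosc9), 15.9% for Ccnd3 (Bysl), 5.88% for Ccnd2 (Gm43126) and 0.954% for Cdk6 (Gm17590). LTO1 averaged 10.4 CPM over the FA libraries and 8.73 over the DE libraries (log2 fold change -0.25, adjusted p = 0.224 from edgeR). Its part in the counts of Ccnd1 was not tested. The log2 fold change of Exosc9, beside Ccna2, was 0.01 (adjusted p = 0.957 from edgeR), and none of the partners with a tested value was called.

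The genes around the 10 in the pathway were grouped by role. In the retinoblastoma and E2F family, 4 of 13 genes were called, all higher in DE, against 3.58% of all tested genes called higher. E2f1, an activator of S phase genes, rose from 11.1 to 25.7 CPM (log2 fold change 1.21, adjusted p = 0.00074 from edgeR). E2f8, a repressor of the family, rose from 12.2 to 21.02 CPM (0.78, adjusted p = 0.00271), the activator E2f2 from 4.55 to 7.73 CPM (0.77, adjusted p = 0.0323) and Rbl1, the retinoblastoma relative p107, from 13.8 to 20.8 CPM (0.59, adjusted p = 0.0434). The count dropped to 2 when FA replicate 2, 3 or 4 or DE replicate 3 or 5 was left out, fits in which the count over all tested genes fell from 868 to between 237 and 526. Over the list the median log2 fold change was 0.20, and it was 0.02 without DE replicate 1 and 0.07 without DE replicate 7.

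Of the inhibitors of these kinases, 6 of 7 were tested and 1 was called, against 5.80% of all tested genes. DESeq2 called 2, against 10.8% of all tested genes. Cdkn1c, which encodes the inhibitor p57, rose from 41.0 to 73.5 CPM (log2 fold change 0.85, adjusted p = 0.00542 from edgeR), so an inhibitor was higher in DE alongside the cyclins. The log2 fold changes of Cdkn2d, Cdkn1a, Cdkn2c, Cdkn2b and Cdkn1b were 0.54, 0.34, 0.31, 0.20 and -0.15, with adjusted p of 0.0865, 0.128, 0.103, 0.569 and 0.461. Cdkn2a did not pass the filter on low counts. Among 16 genes that activate, restrain or degrade the cyclin kinases, 2 were called, both higher in DE, with a median of 0.21, against 5.80% of all tested genes called. DESeq2 called 5 of the 16, against 10.8% of all tested genes. Fbxo5, an inhibitor of the anaphase-promoting complex, rose from 12.1 to 20.1 CPM (0.73, adjusted p = 0.00771), and Pkmyt1, a kinase that restrains Cdk1, rose from 8.43 to 14.9 CPM (0.83, adjusted p = 0.0101).

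Downstream of the cyclins, 24 of 28 S-phase genes were called, all higher in DE, against 3.58% of all tested genes called higher. The median log2 fold change of the list was 0.72. Uhrf1, which guides maintenance of DNA methylation at replication, rose from 23.4 to 48.2 CPM (1.04, adjusted p = 0.00271 from edgeR). The sliding clamp Pcna rose from 82.1 to 136.5 CPM (0.73, adjusted p = 0.00500), and the helicase subunits Mcm3 and Mcm6 rose by 0.83 (adjusted p = 0.00553) and 0.88 (adjusted p = 0.00642). With single libraries left out the count fell to 13 without FA replicate 2 or 4, 14 without DE replicate 3, 16 without FA replicate 3 or DE replicate 5, and 18 without DE replicate 7. The median log2 fold change of the list stayed between 0.63 and 0.81 over the 8 fits with a library left out. The count over all tested genes fell too, from 868 to between 237 and 268 without FA replicate 2, FA replicate 4 or DE replicate 3. On the libraries that carry 11, 7 S-phase genes and 260 of all tested genes were called. Of the 4 mitotic genes, Cdk1, the kinase of mitosis, rose from 56.8 to 88.0 CPM (0.63, adjusted p = 0.0106 from edgeR), while Ccnf, Ccnb1 and Ccnb2 were not called, at 0.36, 0.28 and 0.23 (adjusted p = 0.137, 0.144 and 0.216). Cdk1 was not called without FA replicate 4 or on the libraries that carry 11.

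Another 22 cyclins and cyclin-dependent kinases, none of them in the lists above, served for comparison. By edgeR's quasi-likelihood test 0 of them were called, as by DESeq2 and the likelihood ratio test, with 6 of 22 at an unadjusted p under 0.05, against 25.6% of all tested genes. On the libraries that carry 11, 1 was called lower. In the fit on all libraries 7 of 22 were higher in DE, and the median log2 fold change was -0.04. The smallest adjusted p-values were those of the transcriptional kinases Cdk12 (-0.53, adjusted p = 0.129) and Cdk8 (0.21, adjusted p = 0.166).

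**Figure D5:**
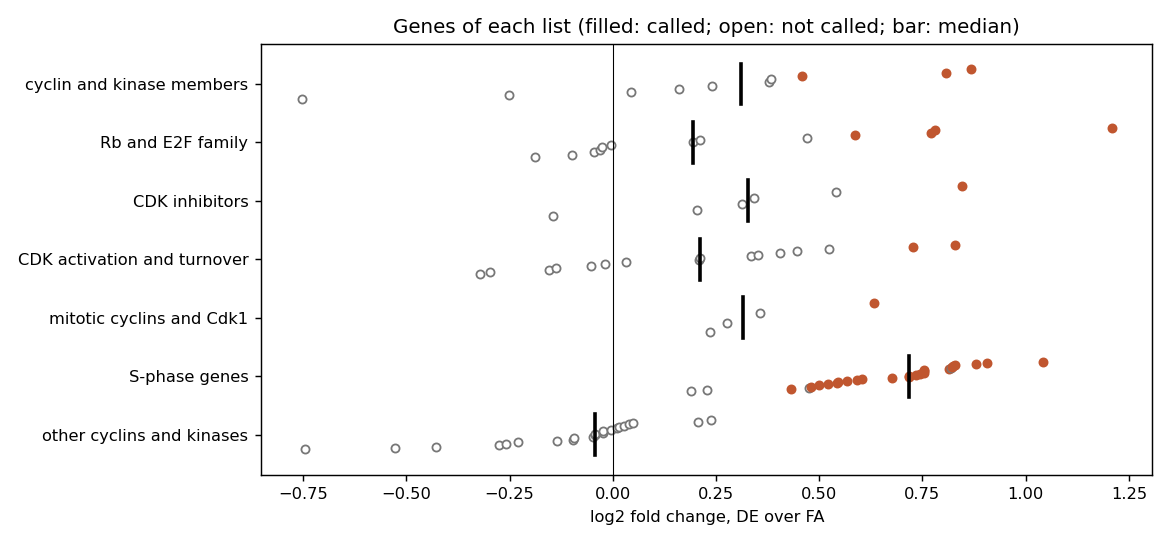
Log2 fold change of DE over FA (horizontal axis) for every tested gene of the cyclin and kinase members and of the lists around them (rows), with filled points for called genes, open points for the others and bars for the median. The 28 S-phase genes all lie above 0 with a median of 0.72, and the 22 other cyclins and kinases lie around a median of -0.04.

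Genes whose levels followed those of single cyclins most closely over the 8 libraries were found by the root mean square difference of centred log2 CPM, among 13361 genes of at least 1 CPM. For Ccnd1 they were A2m, Ddah1 and Sh3gl3 (0.109, 0.115 and 0.115 on the log2 scale). For Ccne1 they were Chek1, Pcna and Fbxo5 (0.0598, 0.0915 and 0.0928), of which Pcna and Fbxo5 are also in the lists above, and for Ccna2 they were Nusap1, Bub1 and Prc1 (0.0435, 0.0450 and 0.0534). For Cdc25a they were Myorg, Ttl and Telo2 (0.0514, 0.0516 and 0.0533). The profiles share libraries, and the likeness was given no test.

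Of the lists of markers of other cells, that of fibroblasts held the most called genes. All 10 fibroblast markers, whose sums are given above, were higher in DE. Of these markers 3 were called (Col1a1, Dpt and Dcn), or 7 with DESeq2, against 5.80% and 10.8% of all tested genes. The most abundant, Col3a1 and Postn, stood at 1014 and 727 CPM in FA and at 1618 and 1182 CPM in DE. Their part in the differences of the E2F family and S-phase genes was likewise not tested. The cardiomyocyte markers summed to 73669 to 79900 CPM in FA and 64573 to 76027 CPM in DE, and among them Myh6 and Pln were called lower and Myh7 higher. With the number in the sample name as a term, 1 cardiomyocyte marker was called lower and 0 higher, as on the libraries that carry 11. In these 2 fits 448 and 260 of all tested genes were called. Endothelial markers (1312 to 1689 CPM in FA and 1459 to 2128 in DE, led over all 8 libraries by Eng and Pecam1, with Cdh5 above Pecam1 in FA), smooth muscle and pericyte markers (1161 to 1816 and 825 to 1257, led over all 8 by Acta2 and Pdgfrb, with Cspg4 above Pdgfrb in FA), epicardial markers (152 to 180 and 147 to 171, led by Tbx18 and Msln) and leukocyte markers (12.4 to 18.8 and 15.2 to 26.5, led over all 8 by Cd68 and Csf1r, with Lyz2 above Csf1r in DE) had 0 called genes by edgeR's quasi-likelihood test. At an unadjusted p under 0.05, which 25.6% of all tested genes reached, these lists held 5 of 10, 1 of 8, 1 of 7 and 1 of 5 tested genes. DESeq2 and the likelihood ratio test, which called 10.8% and 10.7% of all tested genes, each called 2, 1, 1 and 1 of them. Erythroid markers (430 to 1023 and 674 to 1123, led by Hba-a1 and Hbb-bs) had 1, Slc4a1. No marker found in the table was at 0 in all libraries.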

How the data were processed

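RNA of 8 libraries was measured by poly-A selected, stranded RNA-seq. The authors aligned reads to mm10 and its Ensembl v67 transcripts with Tophat, marked duplicates without removing them and counted fragments with featureCounts, and deposited these counts unnormalized, with genes named by Entrez number. Which annotation and strand setting featureCounts was given, and what it did with multi-mapping reads, is not stated. Counts of 17943024 to 39839737 fragments per library set the precision. The methods give n = 3 per group without naming the libraries, so all 8 were used. All FA libraries and DE replicates 1 and 7 carry 11 in their names and DE replicates 3 and 5 carry 12, with no meaning stated. Nothing says that the neonates came from separate litters, so p-values measure the spread between these libraries.

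Of 27179 genes, 25275 were given a symbol and 14966 passed edgeR's filterByExpr at 10 counts. TMM-scaled counts were tested with glmQLFit and glmQLFTest (edgeR 4.0.16, R 4.3.3), exposure being the only term. In all, 868 genes were called, 536 of them higher in DE, and 3829 had an unadjusted p under 0.05. The biological coefficient of variation was 15.95%. No library was a copy of another, the smallest chi-square per gene within a group being 5.06 (FA replicates 2 and 4). Exon lengths were taken from RefSeq-matched transcripts on GRCm38.p6 and were known for 92.55% of tested genes.

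Every one of the 10 genes was reported. Of other lists, written from general knowledge, all genes were named in lists of up to 8, otherwise the 4 called genes of smallest adjusted p, or, with none called, the 2 smallest. The 3 nearest profiles were named for 4 of the 10 genes, and the 2 most abundant genes for markers. The genes and lists were chosen with earlier results of these data known. The alternatives were relative log expression factors, library totals alone, no filter, DESeq2 1.42.0, the likelihood ratio test, the 25% difference built into the test, a term for the 11 or 12 in the names, the libraries with 11 only and each library left out. Another 3, added after the data were seen, were offsets for transcript length, the balance of long and short transcripts as a term, and the genes with a known length only. The code was tested on simulated data.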

Additional observations from a re-analysis of the deposited data

Results flagged for a closer look

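A library was looked at again where its distance to the nearest of its group exceeded, as a share of the range of the group, Dixon's 95% limit for 4 libraries. This held for 2 of the 20 groups of values (10 genes, each in FA and DE), and chance alone gives about 1 in 20. Ccnd2 in DE replicate 7 stood at 205.2 CPM, with the nearest DE library at 151.1 CPM and the lowest at 141.7 CPM (0.852 of the range). Without that library the log2 fold change of Ccnd2 was -0.40 (adjusted p = 0.0808 from edgeR). Ccna2 in FA replicate 6 stood at 114.4 CPM, with the nearest FA library at 96.7 CPM and the lowest at 94.7 CPM (0.898 of the range), and Ccna2 kept its call without it.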

How the results depend on the processing

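The count of called genes among the 10 stayed at 2 to 3 with single libraries left out, and it was 1 (Ccnd1) with the 25% difference built into the test and 1 (Ccnd1) on the libraries with 11 in the name. Over all tested genes the count of 868 changed to 1618 with DESeq2, 1602 with the likelihood ratio test, 114 with the 25% difference built in, 448 with the number in the sample name as a term, 260 on the libraries with 11 in the name and 1414 with length offsets. Leaving out single libraries gave 237 (without FA replicate 4) to 1167 (without DE replicate 1). The causes were not tested. Of the calls, 61.75% were higher in DE, against 78.73% with library totals alone, 49.65% without FA replicate 3 and 38.6% with the 25% difference built in. None of the 10 genes changed direction under the 19 alternatives, 3 of which were chosen after the data were seen. No paired analysis was possible because the groups share only 1 replicate number. Ccne2 at 5.38 CPM and Cdk6 at 8.92 CPM in FA had the widest intervals of the 10 genes.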

Other observations

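The extremes of the 10 genes were spread unevenly over the libraries. DE replicate 5 held the highest CPM of the 8 libraries for 6 of the 10 genes, FA replicate 4 for 2, and DE replicates 3 and 7 for 1 each. FA replicate 3 held the lowest for 4, FA replicate 2 for 3, DE replicate 3 for 2 and FA replicate 4 for 1.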
